A study of Mus musculus with 71 samples.

Results

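Oxidative phosphorylation makes most of the ATP of an aerobic cell. Complexes I to IV of the inner mitochondrial membrane pass electrons from NADH and succinate to oxygen. Complexes I, III and IV also pump protons, and complex V, the ATP synthase, uses the returning protons to make ATP. A few subunits are encoded by the mitochondrial genome, and the others by nuclear genes that are transcribed, exported and translated in the cytosol before their proteins are imported. Pluripotent cells use glycolysis heavily and also respire, and mouse embryonic stem cells in the naive state are known for active mitochondria.

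The nuclear genes for the subunits were taken by gene symbol. All symbols starting with Ndufa, Ndufb, Ndufc, Ndufs, Ndufv, Uqcr, Cox4 to Cox8 or Atp5 were kept, with Sdha, Sdhb, Sdhc and Sdhd, and the assembly factors starting with Ndufaf were left out. Of the 21527 genes in the files, 82 matched: 36 of complex I (NADH dehydrogenase), 4 of complex II (succinate dehydrogenase), 8 of complex III (cytochrome bc1), 17 of complex IV (cytochrome c oxidase) and 17 of complex V. Genes were assigned to complexes by symbol alone. Ndufa4, known as a subunit of complex IV, and Ndufa4l2 are therefore counted under complex I, and Cox7a2l under complex IV. The rule itself uses no measured value, but it was chosen with earlier results of these data known. Subunits with other symbols, such as Cyc1 of complex III, are not among the 82. Cox4i1, Ndufa13 and Ndufb8 would match the rule but are not in the files. They lie on 19 different chromosomes of the mouse genome (GRCm38.p6), and 3 of them, Cox7b, Ndufa1 and Ndufb11, lie on X.

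The samples are mouse embryonic stem cells, labelled as male, grown in medium with LIF and the inhibitors of MEK and GSK3 known as 2i. RNA was labelled with 4-thiouridine (s4U, 100 µM) for 24 h and followed through a chase with a 100-fold excess of uridine, and its age was read by SLAM-seq, in which alkylated s4U is read as C in place of T. STM2457 (20 µM), an inhibitor of the m6A RNA methyltransferase Mettl3, or its solvent DMSO was given 6 h before the chase and kept to its end. Cells were lysed after 0, 1, 1.5, 2.3, 3.5, 5.3, 8 and 12 h of chase, which is 6, 7, 7.5, 8.3, 9.5, 11.3, 14 and 18 h of treatment. The labels give the points as T0 to T7 without hours. The hours were taken from the source data published with the study. Its methods do not list them, but give a 1.5-fold spacing and a half-life limit of 18 h, described as 1.5 times the last point. Each treatment also has a group without s4U. All 18 groups have 4 libraries, except STM2457 at 3.5 h, which has 3, so that there are 71 libraries.

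The libraries count the 3′ ends of polyadenylated transcripts. They hold 4539726 to 7368244 reads in DMSO (median 5465434) and 4704543 to 6804970 in STM2457 (median 5765090). Levels are given as CPM, the reads of a gene scaled to a common library total. In 3′ counting a transcript gives a read at its end whatever its length, so levels of different genes are compared on that scale, although capture can still differ between transcripts. Reads without molecular identifiers are not independent molecules, so counts cover counting error only, and in bulk RNA fewer cells with a transcript and less of it per cell cannot be told apart. The study describes its replicates as biological and independent, and the p-values measure the spread between libraries.

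The label of the cells was checked against marker genes. Of 10 listed markers of naive embryonic stem cells 9 are in the files, and their summed level averaged 4450 CPM in DMSO and 4772 in STM2457, led by Dppa5a at 2737 in DMSO. Klf2 averaged 512 in DMSO and 766 in STM2457, Esrrb 76.0 and 116, Zfp42 43.3 and 67.9, and Nanog 202 and 255. Among the 9 only Dppa5a averaged lower in STM2457 (2657). Whether these marker differences bear on the subunit reads was not tested. The 5 primed epiblast markers summed to 291 in DMSO and 215 in STM2457, most of it Dnmt3b (258 and 188). The 5 primitive endoderm markers summed to 4.71 and 6.03, with Gata4 highest, the 5 trophoblast markers to 71.8 and 75.3, with Krt8 highest, and the 6 feeder fibroblast markers to 10.6 and 12.5, with Thy1 highest and Postn at 0. Of 4 neural markers only Nes is in the files, at 18.4 and 14.7. The naive sum rests largely on Dppa5a, Pou5f1 (815 in DMSO) and Klf2 (512), while Klf4 averaged 2.63, below the primed marker T (24.7). The label male could not be checked with these data. The Y-linked genes Ddx3y, Kdm5d and Uty are listed in the files and had 0 reads in all 71 libraries, where 3 reads would be 0.407 to 0.661 CPM, and Eif2s3y had 5 reads in 3 libraries. Whether the filtered 3′ end windows miss the transcripts of these genes was not tested.

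Libraries of the same group stood apart from each other in a way that reached several subunit genes. The measure that tracked it is the mean length of the 3′ end windows in which the reads of a library fell. It was 497 to 517 bases in most libraries but spread in the DMSO group at 1 h (496, 557, 525 and 536 in replicates 1 to 4), in STM2457 at 1 h (534, 529, 505 and 561) and in DMSO at 5.3 h (505, 512, 527 and 530), and in DMSO at 1.5 h it was 510, 524, 513 and 522. Cox6b2, an isoform of complex IV known from testis, stood at 230, 30.002, 70.02 and 38.8 CPM in the DMSO libraries at 1 h and at 171, 123, 46.7 and 49.6 at 5.3 h. Its level was lowest in the libraries with the longest windows. Cox7c, a small structural subunit of complex IV, ran the other way, with 161, 572, 360 and 423 at 1 h in DMSO. The results on read levels are therefore also given with this mean length as a covariate and, for the mean over chase times, without 1.5 and 5.3 h, both chosen after seeing the data; what separates these libraries was not tested.

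Nearly all of the subunit genes were expressed. Together they took 22528 to 24907 CPM in the 4 DMSO libraries at 0 h. The 7 most abundant were ATP synthase genes, led by Atp5b, the catalytic β subunit, at a mean of 1172 CPM over the DMSO libraries (lowest 816, highest 1714) and Atp5g3, a gene for the c subunit of the membrane ring, at 978. In complex I the highest were Ndufa10 (456), an accessory subunit, and Ndufv1 (319), which binds NADH. In complex II Sdhb (341), the iron-sulphur subunit, and Sdha (281), the flavoprotein, were higher than the membrane anchors Sdhd (184) and Sdhc (77.2). In complex III the small subunits Uqcrq (504) and Uqcr10 (496) led, and in complex IV Cox7a2 (484) and Cox5b (475).

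Isoforms known from other tissues were low or absent, with exceptions. Cox8b, known from muscle and brown fat, had no read in any library, and Cox6a2 of heart and muscle averaged 0.0142 CPM in DMSO. Cox4i2 averaged 0.2998, with Cox4i1 not in the files for comparison, and Cox8c 0.340. Cox8b, Cox6a2, Cox4i2 and Cox8c passed no filter and enter no test. Ndufa4l2 (0.814) and Cox7b2 (1.85) passed the filter on reads but rest on few reads, and the muscle isoform Cox7a1 averaged 13.5 beside 484 for the ubiquitous Cox7a2. In contrast, Cox6b2 averaged 162 beside 283 for its ubiquitous counterpart Cox6b1. The c subunit was read from all 3 of its genes, with Atp5g3 at 978, Atp5g1 at 532 and Atp5g2 at 514; 98.4% of the reads of Atp5g2 and 67.2% of those of Atp5g1 mapped to several places, against 0.787% for Atp5g3.

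Multimapping limits some of the other members. More than 50% of reads were multimapping for 12 of the 82 genes, more than 90% for 4, and less than 10% for 63. Of the 82 genes, 78 passed the filter on reads and were tested among 12659 genes, 77 were tested for conversion rates among 11424, and 75 had a half-life in both treatments among 7394 transcripts. Besides the 4 isoforms above, Ndufa4l2 and Cox7a1 had no half-life in both treatments, and Ndufb7, an accessory subunit of complex I, was just outside the limit of 18 h, at 18.2 h in DMSO and 17.6 h in STM2457.

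How long do these transcripts live? The share of T positions read as C (the conversion rate, in percent of covered Ts) was low without s4U and similar in both treatments at the start of the chase. Over all subunit reads it was 0.0961, 0.0919, 0.0768 and 0.0758% in the 4 DMSO libraries without s4U, and 1.31, 1.49, 1.43 and 1.43% in those at 0 h of chase. The 4 STM2457 libraries at 0 h read 1.24, 1.38, 1.43 and 1.36%, which overlaps the DMSO libraries. At 12 h of chase the rate was 0.536, 0.474, 0.529 and 0.543% in DMSO. The subunit transcripts had thus kept part of their label after 12 h, in every DMSO library.

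OXPHOS transcripts kept their label far longer than most transcripts. In DMSO the median signal left over the 75 transcripts, after subtracting the rate without s4U, was 88.5% of the start at 3.5 h, 57.7% at 5.3 h, 46.9% at 8 h and 30.9% at 12 h. Over all 7394 transcripts the same medians were 59.5, 14.4, 6.85 and 3.20%. The loss was not even in time: most of it fell after 3.5 h, in the subunits and in all transcripts. An exponential decay from 0 h gave a median half-life of 8.15 h for the 75 transcripts (quartiles 6.75 and 9.64 h). For all transcripts it was 3.19 h (2.37 and 4.33 h). The converted share also falls as growing cells add unlabelled RNA, and the fit made no correction for growth. Of the 75, 74 were above the median of all transcripts and 71 were above the upper quartile of all transcripts.

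**Figure D1:**
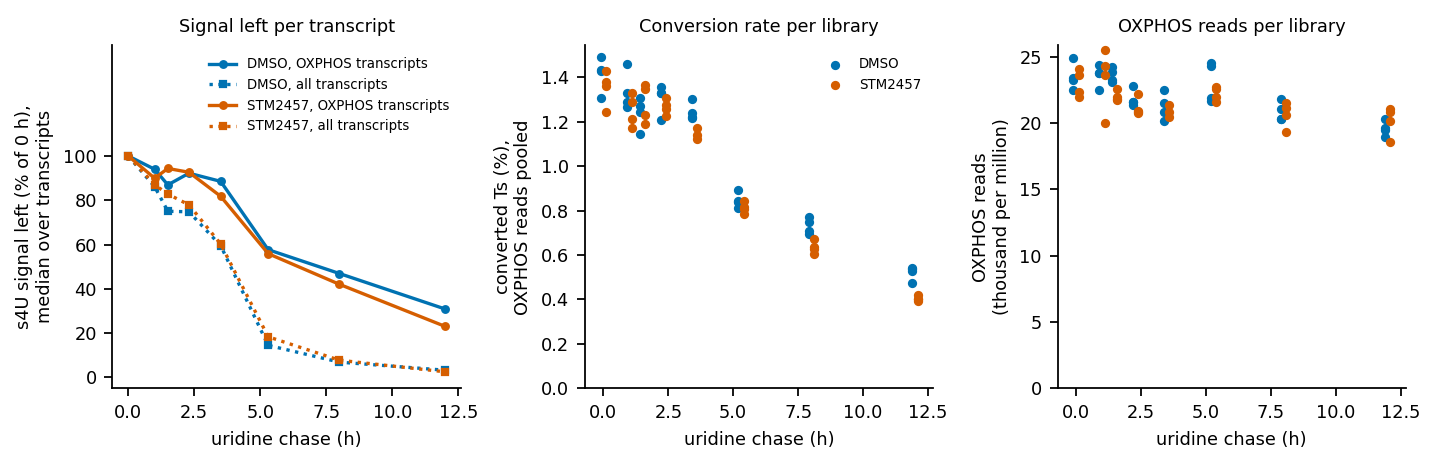
Label and reads of the OXPHOS genes over the chase (x axes, hours): left, median s4U signal left per transcript in percent of 0 h, for 75 OXPHOS transcripts (solid) and 7394 transcripts (dotted); middle, percent of Ts converted in the pooled OXPHOS reads of each library; right, OXPHOS CPM, 1 point per library. At 12 h the 4 STM2457 libraries lie between 0.395 and 0.418%, under the 4 DMSO libraries at 0.474 to 0.543%.

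The replicate series show the error of these medians. Libraries with the same replicate number were joined to 4 series per treatment, and 52 subunit transcripts could be fitted in all of them. STM2457 replicate 4 has no library at 3.5 h, so its series was fitted without that time. Their median in the DMSO series was 8.70, 6.71, 8.31 and 7.48 h, a mean of 7.80 ± 0.89 h (SD, n = 4). Over all 5761 transcripts that could be fitted in each series the mean was 3.41 ± 0.08 h, so all DMSO series put the subunits above the rest by more than the spread between series. Transcripts taken by the symbols of cytosolic ribosomal proteins, whose messages are known to be stable, reached 10.4 h ± 1.0 in DMSO (63 transcripts). Those of mitochondrial ribosomal proteins stood at 4.19 ± 0.41 h (67). The cytosolic list was taken by symbol start and also holds genes that are not ribosomal proteins, namely Rps19bp1 and the kinase genes starting with Rps6k. Long half-lives were thus found for the respiratory subunits and not to the same degree for the mitochondrial ribosome.

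By complex, the medians lay closer together than the single transcripts. In DMSO complex IV had 9.01 h (12 transcripts) and complex V 8.98 h (17), complex I 8.02 h (34) and complex III 7.49 h (8), and complex II, with 4 transcripts, 5.84 h. Within complex I the half-lives under the limit of 18 h ran from 4.31 to 14.6 h, with Ndufb7 beyond it, and within complex V from 6.18 to 13.2 h.

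Among the transcripts under the limit of 18 h, the longest-lived were Ndufb6 (14.6 h), an accessory subunit of the membrane arm of complex I; Cox6a1 (14.3 h), the ubiquitous isoform of a regulatory subunit of complex IV; Ndufs8 (13.9 h), which carries iron-sulphur clusters of complex I; Cox6c (13.8 h); and Atp5b (13.2 h). The conversion rate of Cox6a1 was 1.20, 1.37, 1.43 and 1.38% at 0 h and still 0.663, 0.674, 0.901 and 0.714% at 12 h in the DMSO libraries. For Atp5b it was 1.31, 1.38, 1.45 and 1.49% at 0 h, 1.34, 1.28, 1.33 and 1.41% at 3.5 h and 0.777, 0.676, 0.747 and 0.799% at 12 h. The libraries of Atp5b at 3.5 h overlapped those at 0 h, and those at 12 h did not. The series of Atp5b gave 16.9, 12.8, 12.2 and 11.9 h, all above the median of the subunits. Single series of the longest-lived transcripts reached past 18 h, such as 22.2 h for Cox6a1 and 27.1 h for Cox6c in replicate 1. The values of these transcripts are therefore less certain than the order of magnitude. The doubling time that the study gives for these cells in s4U is shorter than the half-lives of Ndufb6, Cox6a1, Ndufs8 and Cox6c. It is close to that of Atp5b, so these values cannot be read as decay of the transcript alone.

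At the short end were Cox7b2 (1.92 h), Cox6b2 (3.47 h), Sdhd (4.02 h), Ndufs1 (4.31 h) and Ndufs3 (4.40 h). Sdhd, a membrane anchor of complex II, had a conversion rate of 1.82, 1.58, 1.57 and 1.20% at 0 h and of 0.00950, 0.194, 0.0553 and 0.245% at 12 h in DMSO, close to the background. Its series gave 2.79, 4.18, 4.17 and 5.90 h. Ndufs1, the largest subunit of complex I and an iron-sulphur protein, gave 4.43, 5.03, 4.91 and 3.27 h. Both were shorter-lived than the subunit median in all 4 DMSO series. Cox7b2 rests on 0 to 5.18 CPM, and its rate at 0 h was 0 in 2 of the 4 DMSO libraries, so its half-life carries little weight. For Cox6b2, the rate without s4U was already 0.524, 0.746, 0.568 and 0.486% in DMSO, so much of its signal at 12 h (0.548 to 0.921%) is background. Ndufs3, which belongs to the core of complex I, has 61.4% multimapping reads.

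The 3 members on X are of interest because the study is about dosage between X and autosomes. Their half-lives in DMSO were 8.93 h for Cox7b, 8.49 h for Ndufa1 and 10.1 h for Ndufb11. The first 2 lie slightly above the median of the 75, and Ndufb11 lies above their upper quartile. Cox7b is a small subunit of complex IV, and Ndufa1 and Ndufb11 are accessory subunits of complex I. In STM2457 they were 6.49, 10.0 and 10.2 h, and 58.2% of the reads of Ndufb11 were multimapping. The rate of Ndufa1 without s4U averaged 0.448% in DMSO and 0.321% in STM2457. At 12 h it averaged 0.954 and 0.866%, so much of its late signal is background.

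**Figure D2:**
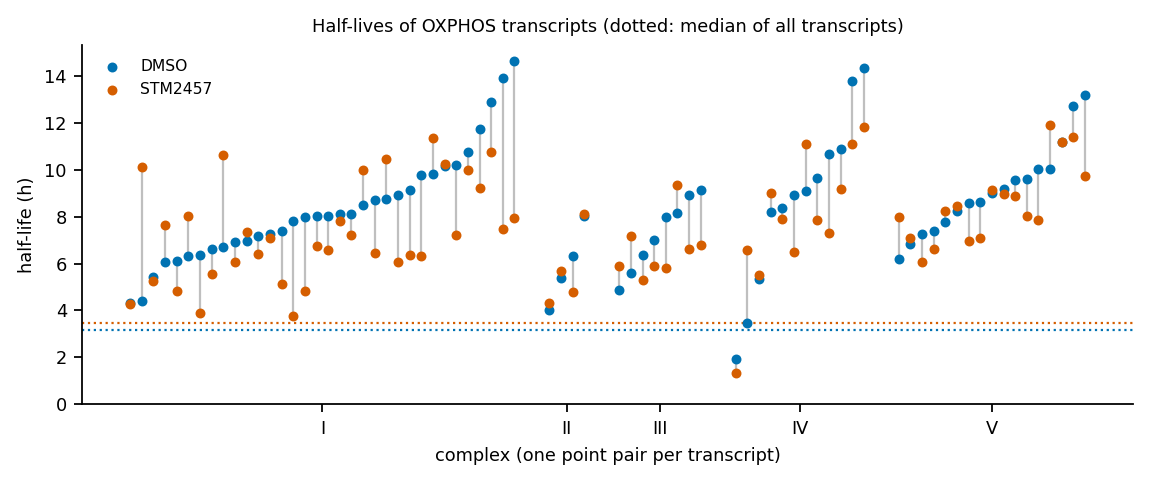
Half-life in hours (y axis) of the 75 OXPHOS transcripts with a value in both treatments, ordered by complex and by half-life in DMSO (x axis), with DMSO in blue, STM2457 in orange and a line joining the pair. In DMSO 74 of the 75 lie above the dotted median of all transcripts, 3.19 h.

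Did STM2457 change how long they live? In STM2457 the median half-life of the 75 was 7.203 h, against 8.15 h in DMSO, while the median of all transcripts was 3.45 h against 3.19 h. The median log2 ratio was −0.17 for the subunits and 0.07 for all, and 50 of 75 were shorter in STM2457 against 3199 of 7394. A decrease was not limited to the subunits. Transcripts taken by cytosolic ribosomal protein symbols had −0.16 (58 of 83 shorter), electron carriers and coupling −0.19 (5 of 5) and the citric acid cycle −0.09 (8 of 13). The ratio was positive for mitochondrial ribosomal proteins (0.13), assembly factors (0.20) and biogenesis regulators (0.14). Whether the subunits differ from these lists was not tested. Of the 75, 7 stood above 12 h in DMSO and 0 in STM2457, a count that leaves out Ndufb7, at 17.6 h in STM2457, because its value in DMSO passed the limit of 18 h. The series overlapped, however: the STM2457 series had medians of 8.30, 6.65, 6.40 and 6.13 h (6.87 ± 0.98 h, SD, n = 4) beside 8.70, 6.71, 8.31 and 7.48 h in DMSO, so the difference of the medians is no larger than the spread between series. The 12 members with mostly multimapping reads had a median of 9.04 h with DMSO against 8.71 h with the inhibitor, 5 of 12 being shorter, and the other 63 had 8.10 h and 7.11 h, with 45 shorter. Whether these 2 sets differ was not tested.

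No single transcript passed the test. With limma on log2 half-lives of the series and an adjusted p below 0.05, 0 of 52 subunit transcripts were called, and 0% of all 5761. Of the 52, 8 had an unadjusted p below 0.05, beside 394 of all 5761, and no other tool was run on half-lives. Those were Ndufb2 (−1.20), Cox5a (−0.55), Ndufa11 (−0.53), Atp5b (−0.46), Ndufs7 (−0.65), Uqcrc1 (−0.47), Cox7b (−0.51) and, in the other direction, Cox6b2 (1.04), given as log2 ratios; the 8 were chosen after their values were seen. For Ndufb2, an accessory subunit of complex I, the rates at 12 h run against the ratio, with 0.153, 0.223, 0.363 and 0.0721% in DMSO and 0.932, 0.168, 0.669 and 0.256% in STM2457. Its rates at 0 h, to which the decay is scaled, were 0.880, 1.18, 1.47 and 1.42% in DMSO and 1.82, 1.77, 1.92 and 1.32% in STM2457. Cox5a, a structural subunit of complex IV, had 11.3, 12.02, 8.99 and 10.9 h in the DMSO series and 6.79, 8.85, 6.87 and 6.93 h in STM2457. These series did not overlap, and the adjusted p of Cox5a from limma was 0.698. Its rates at 12 h did overlap, with 0.988, 0.781, 0.702 and 0.807% in DMSO and 0.610, 0.859, 0.836 and 0.631% in STM2457. The subtracted rate without s4U averaged 0.324% in DMSO and 0.429% in STM2457. Atp5b had 16.9, 12.8, 12.2 and 11.9 h in DMSO and 11.2, 11.2, 8.72 and 8.02 h in STM2457, which do not overlap either (adjusted p = 0.707 from limma). Neither is a call, and a p that misses the threshold does not show that the half-lives were equal.

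Label left at the end of the chase gave a clearer difference in the rates as measured. With each library's overall rate in the offset, given in the next paragraph, fewer genes were called. At 12 h, which is 18 h of treatment, the pooled subunit rate was 0.418, 0.401, 0.401 and 0.395% in STM2457 and 0.536, 0.474, 0.529 and 0.543% in DMSO. All 4 STM2457 libraries were lower. Of 77 subunit genes, 11 had a lower rate at an adjusted p below 0.01 (edgeR) and 0 a higher one. Over all 11424 genes 2.68% were called, and 2.39% were called lower. The median log2 ratio was −0.33 for the subunits and −0.07 for all genes. At 0 h no gene was called by edgeR (0 of 77, and 0% of all), 1 of the 77 had an unadjusted p below 0.05, and limma on the rates also called 0.

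The rate over all reads of a library was also lower in STM2457 at 12 h. It was 0.278, 0.265, 0.290 and 0.282% in DMSO and 0.232, 0.218, 0.222 and 0.219% in STM2457, while at 0 h it was 1.28, 1.43, 1.40 and 1.37% in DMSO and 1.18, 1.30, 1.36 and 1.27% in STM2457. With each library's overall rate in the offset, 2 of the 77 genes were called instead of 11, beside 140 of all 11424, and the median log2 ratio of the subunits was −0.01. With limma on log2 rates 3 were called, beside 208. Without STM2457 replicate 2 the count was 6 and without DMSO replicate 4 it was 7. Each such refit left out all libraries of that replicate number and treatment, at every chase time and without s4U. The overall rate pools all reads, those of the subunits among them, and which of the 2 scales is the better one was not tested.

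Among the 11 genes, complex V had 5, and complexes I, III and IV 2 each. Atp5f1, the b subunit in the stalk of the ATP synthase, had rates of 0.694, 0.434, 0.526 and 0.520% in DMSO and 0.285, 0.287, 0.163 and 0.350% in STM2457. All STM2457 libraries were lower (log2 −0.997 ± 0.15 SE, adjusted p = 3.0e-07 from edgeR). Atp5md, a small subunit of the membrane part, had 0.737, 0.694, 0.865 and 0.782% against 0.385, 0.291, 0.410 and 0.447% (log2 −1.005, adjusted p = 1.4e-05 from edgeR). Both were called under each of the 13 alternatives tried, the overall-rate offset included, though 85.7% of the reads of Atp5md were multimapping. Uqcrc1, a core protein of complex III, had 0.589, 0.443, 0.582 and 0.563% against 0.214, 0.166, 0.289 and 0.294% (log2 −1.17, adjusted p = 0.0013 from edgeR). Ndufa11, an accessory subunit of the membrane arm of complex I, had 0.518, 0.604, 0.555 and 0.446% against 0.351, 0.245, 0.217 and 0.184% (log2 −1.10, adjusted p = 2.4e-04 from edgeR). In each of these genes the lowest DMSO library was above the highest STM2457 library. Uqcrc1 was no longer called with the overall-rate offset (adjusted p = 0.0447), by limma (0.0339) or without STM2457 replicate 2 (0.0190), and Ndufa11 not with the offset (0.0195). Ndufab1, the mitochondrial acyl carrier protein, was lower at log2 −0.96, but its call was lost in 7 of 13 alternatives, among them without DMSO replicate 1 (adjusted p from edgeR 0.0143), DMSO replicate 2 (0.124), STM2457 replicate 1 (0.124) and STM2457 replicate 2 (0.0311).

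The loss of label from 0 to 12 h itself differed between treatments for 1 of 77 subunit genes (edgeR; 0.499% of all genes). This was Atp5f1, whose rate at 0 h was 1.50, 1.88, 1.86 and 1.74% in DMSO and 1.58, 1.76, 1.74 and 1.50% in STM2457 (log2 of the difference −0.91, adjusted p = 0.0050 from edgeR). The libraries overlapped at 0 h and not at 12 h. The call was lost without DMSO replicate 1 (adjusted p from edgeR 0.0986), DMSO replicate 3 (0.0122), DMSO replicate 4 (0.0175), STM2457 replicate 2 (0.0196) or STM2457 replicate 3 (0.101), and with the overall-rate offset (0.0390).

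Read levels of the subunit genes fell during the chase in DMSO. Summed over the 82 genes they were 24907, 23283, 23427 and 22528 CPM at 0 h and 19623, 19478, 20343 and 18925 at 12 h, without overlap. Of 78 genes tested, 25 fell and 0 rose between 0 and 12 h (edgeR, adjusted p below 0.01), where 13.04% of all genes were called and 8.20% were called lower. The median log2 change was −0.30 for the subunits and 0.04 for all genes. The fallen genes were 6 of 36 in complex I, 1 of 4 in complex II, 5 of 8 in complex III, 6 of 13 tested in complex IV and 7 of 17 in complex V. Of the 94 genes taken by cytosolic ribosomal protein symbols, 49 fell and 1 rose in the same comparison, with a median of −0.37. With mean window length as a covariate, 29 subunit genes fell and 1 rose, beside 1820 of all 12659 called. Without DMSO replicate 1 the count was 11, and without DMSO replicate 2 it was 16.

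Sdhd fell most clearly, from 237, 210, 206 and 213 CPM to 109, 125, 131 and 112 (log2 −0.86 ± 0.11 SE, adjusted p = 1.9e-08 from edgeR), and was called in all 15 alternatives. Atp5e, the ε subunit of the ATP synthase, went from 389, 373, 349 and 353 to 232, 232, 257 and 222 (log2 −0.63, adjusted p = 5.6e-07 from edgeR). Cox7b on the X chromosome went from 520, 451, 367 and 365 to 219, 210, 258 and 172 (log2 −0.99, adjusted p = 3.9e-05 from edgeR), again without overlap. Cox7c went from 353, 265, 189 and 181 to 132, 96.3, 136 and 98.4 (log2 −1.09), but its call was lost without DMSO replicate 1 (adjusted p from edgeR 0.0119) or DMSO replicate 2 (0.0168). Atp5j, coupling factor 6 of the stalk, fell at log2 −0.79, yet 99.5% of its reads were multimapping, and without such reads the sign turned (log2 1.32, adjusted p = 0.535 from edgeR). Cox7b2 fell at log2 −3.36 from 3.12, 2.54, 1.60 and 2.57 CPM to 0, 0.345, 0 and 0.508. These are few reads, and the call was lost without DMSO replicate 1 (adjusted p from edgeR 0.0336) or replicate 3 (0.0174).

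In complex III the 5 genes that fell were Uqcr10, Uqcr11, Uqcrb, Uqcrq and Uqcrfs1. The first 4 encode small subunits, and Uqcrfs1 encodes the Rieske iron-sulphur protein. Uqcr10 went from 587, 517, 540 and 513 to 369, 366, 432 and 368 CPM in DMSO (log2 −0.49), and Uqcrb from 415, 317, 309 and 320 to 242, 262, 238 and 239 (log2 −0.47). In both the groups did not overlap. The core proteins Uqcrc1 and Uqcrc2 and the small subunit Uqcrh were not called.

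The chase in STM2457 called fewer genes. Summed over the 82 genes the level was 24041, 22372, 23637 and 21990 CPM at 0 h and 18570, 20144, 20807 and 21094 at 12 h, also without overlap. Of 78 genes 3 fell and 0 rose, close to the share of all genes (4.72% called, 3.03% called lower), and the median log2 change was −0.18 against 0.00. The 3 were also among the 25 of the DMSO chase: Atp5e (log2 −0.52), Atp5md (−0.54) and Ndufb11 (−0.51). Atp5e went from 366, 336, 372 and 354 to 222, 246, 251 and 281, and it was called in all 15 alternatives. Atp5md and Ndufb11 lost their call without STM2457 replicate 1 (adjusted p from edgeR 0.104 and 0.0527), replicate 2 (0.0235 and 0.0560), replicate 3 (0.0109 and 0.0112) or multimapping reads (0.727, at log2 −0.16, and 0.0441). The count was 1 without STM2457 replicate 1, 2 or 3, 6 without DMSO replicate 1, and 12 with the window length covariate, of which 11 fell, beside 940 of all 12659.

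That more genes were called in DMSO does not show that the chases differed. Tested directly, the change over the chase differed between the treatments for 1 of 78 subunit genes, beside 1.11% of all genes. This gene was Uqcrfs1. In DMSO it fell from 133, 108, 89.96 and 108 CPM to 73.3, 60.9, 69.6 and 59.9, while in STM2457 it stood at 93.4, 85.2, 73.5 and 88.2 at 0 h and 127, 122, 122 and 99.1 at 12 h. The levels at 12 h thus lie below those at 0 h in DMSO and above them in STM2457, without overlap in either, with a log2 difference of 1.20 ± 0.25 SE (adjusted p = 0.0019 from edgeR; 0.0137 without STM2457 replicate 2, which ends the call, and 2.1e-05 with the covariate). Sdhd, Uqcrq and Uqcr10 had differences of 0.44, 0.55 and 0.41 that did not pass (adjusted p from edgeR 0.140, 0.0646 and 0.198).

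At 12 h of chase 3 subunit genes were higher in STM2457 than in DMSO and 0 lower, out of 78 (5.41% of all genes called). Uqcrfs1 had 73.3, 60.9, 69.6 and 59.9 CPM in DMSO and 127, 122, 122 and 99.1 in STM2457, a log2 ratio of 0.84 ± 0.18 SE (adjusted p = 6.4e-04 from edgeR), and was called in all 15 alternatives. Uqcrq had 416, 421, 390 and 401 against 513, 566, 603 and 590 (log2 0.48, adjusted p = 0.0040 from edgeR). Cox7a2, the ubiquitous isoform of a complex IV subunit, had 340, 388, 459 and 341 against 459, 482, 508 and 534 (log2 0.38, adjusted p = 0.0046 from edgeR). In both the groups did not overlap, though for Cox7a2 they nearly touch. Uqcrq lost its call without DMSO replicate 3 (adjusted p from edgeR 0.0266), DMSO replicate 4 (0.0133), STM2457 replicate 2 (0.0152) or STM2457 replicate 3 (0.0123). Cox7a2 lost it without DMSO replicate 1 (0.0287), DMSO replicate 4 (0.0292) and STM2457 replicate 2 (0.0107), 3 (0.0151) or 4 (0.0178). The count was 1 without DMSO replicate 4, STM2457 replicate 2 or STM2457 replicate 3, and 5 with the covariate, beside 1004 of all 12659.

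At most of the other times no subunit gene was called, which does not show that the levels were equal. Without s4U edgeR called 0 of 78, beside 2.58% of all genes. There 22 of the 78 had an unadjusted p below 0.05, beside 2557 of all 12659, and the labels do not say how long these cells had been in STM2457. It also called 0 of 78 at 0 h (1.68% of all genes; 8 of the 78 with an unadjusted p below 0.05), 1 h (1.53%; 0), 2.3 h (1.61%; 3), 3.5 h (1.30%; 4) or 8 h (2.34%; 3). DESeq2 also called 0 of the 78 without s4U and at 0 h, and no other tool was run at the other 4 times. With the covariate 1 gene was called without s4U, beside 684 of all 12659. Between 24 h of s4U and none, edgeR called 0 of 78 in DMSO (0.513% of all) and 0 of 78 in STM2457 (0.521%), and DESeq2 also called 0 in both. An unadjusted p below 0.05 was found for 6 of the 78 in DMSO, beside 1445 of all 12659, and for 4 in STM2457, beside 1578.

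More genes were called at 1.5 h and 5.3 h. There the mean window length was longer in DMSO than in STM2457, with 517 against 508 bases at 1.5 h and 519 against 511 at 5.3 h. At 1 h it was 528 bases in DMSO and 533 in STM2457. Whether window length bears on the number of calls was not tested. At 1.5 h 13 of 78 were called, 12 lower and 1 higher in STM2457, beside 8.18% of all genes. Uqcrc2, a core protein of complex III, had 481, 512, 478 and 500 CPM in DMSO and 343, 292, 315 and 313 in STM2457 (log2 −0.64, adjusted p = 3.3e-04 from edgeR) and was called in all 13 alternatives. Cox7c had 233, 335, 227 and 273 against 135, 114, 124 and 124 (log2 −1.10), and lost its call without DMSO replicate 2 (adjusted p from edgeR 0.0175) or STM2457 replicate 2 (0.0143). Cox7b, Atp5j and Uqcrfs1 were lower at log2 −0.72, −0.69 and −0.66. Cox7b lost its call without DMSO replicate 2 (adjusted p from edgeR 0.0283) or 4 (0.0148) and without STM2457 replicate 1 (0.0151), 2 (0.0175), 3 (0.0113) or 4 (0.0140). Uqcrfs1 lost it without DMSO replicate 2 (adjusted p from edgeR 0.0407), 3 (0.0131) or 4 (0.0249) and without STM2457 replicate 1 (0.0131), 2 (0.0209), 3 (0.0154) or 4 (0.0240). Atp5j lost it without DMSO replicate 2 (adjusted p from edgeR 0.0115), STM2457 replicate 2 (0.0175) or multimapping reads (log2 −1.45, 0.519). The member that was higher was Atp5g2, at log2 0.45. With the covariate the log2 ratios were −0.76 for Cox7c, −0.49 for Cox7b, −0.53 for Atp5j, −0.49 for Uqcrfs1 and −0.54 for Uqcrc2, all still called.

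At 5.3 h 5 of 78 were called, all lower in STM2457, beside 4.45% of all genes: Ndufb4, Uqcrc2, Cox5a, Atp5a1 and Sdha. Uqcrc2 had 409, 466, 624 and 601 CPM in DMSO and 401, 417, 331 and 315 in STM2457 (log2 −0.52), and the DMSO libraries differed among themselves, with replicates 3 and 4 far above 1 and 2. Atp5a1, the α subunit of the ATP synthase, had 819, 843, 1058 and 1088 against 689, 744, 710 and 681 (log2 −0.43). These are the replicates with the longest windows, 527 and 530 bases. Cox5a had 264, 298, 320 and 301 against 211, 224, 217 and 220 (log2 −0.44), and Sdha 287, 307, 304 and 282 against 233, 251, 249 and 231 (log2 −0.29). None of the 5 was called without DMSO replicate 3 (adjusted p from edgeR of 0.0407 for Ndufb4, 0.0728 for Uqcrc2, 0.0211 for Cox5a, 0.0713 for Atp5a1 and 0.0421 for Sdha) or without DMSO replicate 4 (0.0864, 0.0557, 0.0150, 0.0669 and 0.0190). Without STM2457 replicate 1 Ndufb4 (adjusted p from edgeR 0.0165), Cox5a (0.0106), Atp5a1 (0.0282) and Sdha (0.0240) lost their call. Atp5a1 and Sdha also lost it without STM2457 replicate 2 (adjusted p from edgeR 0.0192 and 0.0131), 3 (0.01246 and 0.0114) or 4 (0.0234 and 0.0113), and Sdha without DMSO replicate 2 (0.0211). Ndufb4 and Uqcrc2 lost it without STM2457 replicate 3 (adjusted p from edgeR 0.0287 and 0.0240) or 4 (0.0180 and 0.0272). With the covariate all 5 were called, with log2 ratios from −0.27 to −0.54.

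Averaged over the 8 chase times, 17 subunit genes were lower and 3 higher in STM2457, 20 of 78. The share called, 25.6%, is close to that of all genes, 26.5%, but the directions were split unevenly. Of all 12659 genes 1594 were lower (12.6%) and 1763 higher. Whether the split of the subunits differs from that of all genes was not tested. The median log2 ratio was −0.04 for the subunits and −0.01 for all. Of the lower genes 11 belong to complex I, 2 to complex II, 1 to complex III and 3 to complex V. With the covariate 32 were called, 23 lower, beside 4121 of all 12659. Without STM2457 replicate 3 the count was 11, and without the 1.5 and 5.3 h times it was 5 of 78 (18.8% of all genes, 8.33% lower), a share below that of all genes in either direction, namely Ndufab1, Ndufa8, Ndufb10 and Sdhb lower and Cox7a2 higher.

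The genes called lower with and without 1.5 and 5.3 h were Ndufab1, Ndufa8, Ndufb10 and Sdhb, each called in all 16 alternatives. At single times only Ndufab1 was called among them, at 1.5 h. Ndufab1 had 136 to 232 CPM in the DMSO libraries with label (median 171) and 105 to 230 in STM2457 (median 135), a log2 ratio of −0.34 ± 0.05 SE (adjusted p = 1.0e-08 from edgeR). Ndufa8, a complex I subunit of the intermembrane side, had 95.8 to 210 (median 159) against 55.7 to 157 (median 138) and a ratio of −0.26 (adjusted p = 1.1e-04 from edgeR). Ndufb10, of the membrane arm of complex I, had 109 to 181 (median 150) against 91.9 to 165 (median 130) and a ratio of −0.19 (8.6e-05), and Sdhb 295 to 401 (median 336) against 194 to 343 (median 314) and a ratio of −0.14 (6.6e-04). The ranges overlap in all 4 genes. These differences are small, none reaching 1.3-fold. Uqcrc2 (log2 −0.27), Ndufs3 (−0.24), Ndufs7 (−0.23), Ndufs4 (−0.22), Atp5f1 (−0.19), Atp5a1 (−0.19) and Atp5b (−0.18) were called over 8 times, and none of these 7 without 1.5 and 5.3 h, with ratios of −0.17, −0.16, −0.14, −0.16, −0.10, −0.10 and −0.08 and adjusted p of 0.0155, 0.0582, 0.168, 0.0191, 0.131, 0.122 and 0.342 from edgeR. Leaving out all libraries of 1 replicate number of 1 treatment also ended calls over 8 times. Ndufs7 lost its call without DMSO replicate 2 or 3 (adjusted p from edgeR 0.0134 both times). It also lost it without STM2457 replicate 3 (adjusted p from edgeR 0.0159) or 4 (0.0291). Atp5f1 lost its call without STM2457 replicate 3 (adjusted p from edgeR 0.0123). Atp5b lost it without DMSO replicate 2 (adjusted p from edgeR 0.0114) or STM2457 replicate 3 (0.0196) or 4 (0.0117). Cox7a2 was higher at log2 0.12, and lost its call without DMSO replicate 1 (adjusted p from edgeR 0.0234) or 2 (0.0349) or STM2457 replicate 1 (0.0169), 2 (0.0161) or 3 (0.0464).

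**Figure D3:**
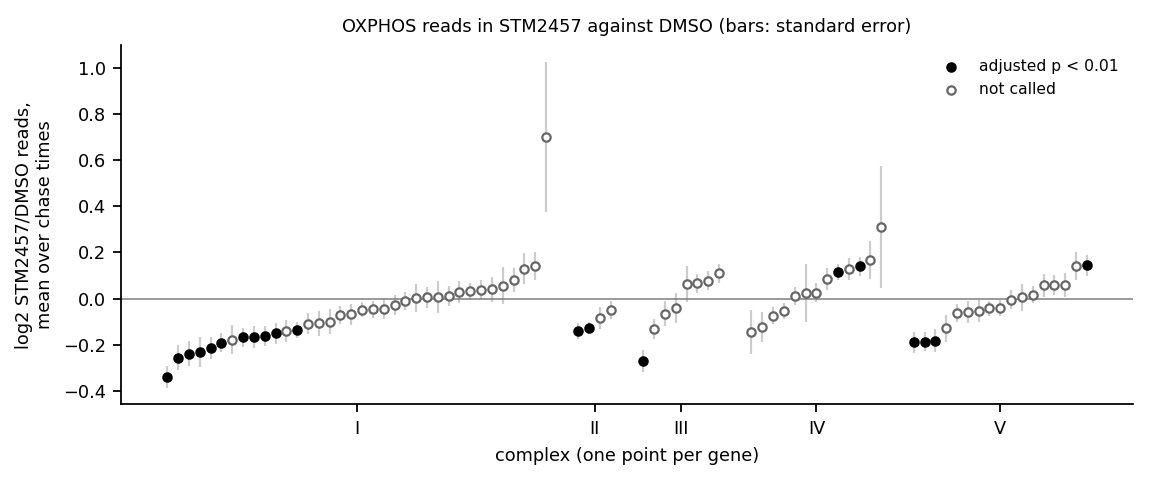
Log2 ratio of reads in STM2457 over DMSO, mean over the 8 chase times (y axis), for each of the 78 tested OXPHOS genes, ordered by complex and ratio (x axis); bars are standard errors and filled points have an adjusted p below 0.01. Of the 20 filled points 17 lie below 0, between −0.13 and −0.34 on the log2 scale.

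What do the genes share beyond their complexes? Their transcripts are short. Over the 81 subunit genes with a protein-coding transcript in GENCODE M21 the median length of the longest transcript was 763 bases against 2662 for 19735 genes of the files, and the 3′ untranslated region 175 against 806 bases. GGACH, with H for A, C or T, is the sequence in which most m6A is known to be placed. The subunit transcripts held a median of 3 such motifs against 9, which per kilobase is 3.30 against 3.53. In their 3′ untranslated region 53.1% held none, against 25.8% of all genes. Per base the motif was thus about as frequent, and per transcript it was scarcer in the shorter messages. Whether length or motif number bears on the half-lives was not tested.

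Promoters were read from RefSeq for GRCm38.p6, from 250 bases before to 50 after the start of transcription; 66 of the 82 genes matched, with 71 windows. The factors NRF1, of the GABP (ETS) family and YY1 are known regulators of respiratory genes. The core of the NRF1 motif, GCGCATGC, was found on either strand in 14.1% of the 71 windows and in 2.71% of all 32851 windows. The YY1 motif AAGATGGCG was in 9.86 against 1.40%, the ETS motif CCGGAAGT in 7.04 against 3.89% and TATAAA in 12.7 against 13.6%. A match describes the letters of a window and not a bound site. By gene, the NRF1 core was found in 10 of 66, and 4 of these, all called genes, are printed here. Ndufa8 and Sdhb were lower in reads under STM2457. Uqcrc1 and Ndufa11 were lower in conversion rate at 12 h, a call that both lost with the overall-rate offset. Atp5g2 also holds the core and was called, but is not printed. Its reads were higher in STM2457 over the 8 chase times, and its conversion rate at 12 h was lower. Whether the motif goes with the calls was not tested. The 4 promoters printed here hold the core in capitals. They lie at chr2:36049289-36049588 (− strand), chr4:140961021-140961320 (+), chr9:108936398-108936697 (+) and chr17:56717512-56717811 (+).
Ndufa8: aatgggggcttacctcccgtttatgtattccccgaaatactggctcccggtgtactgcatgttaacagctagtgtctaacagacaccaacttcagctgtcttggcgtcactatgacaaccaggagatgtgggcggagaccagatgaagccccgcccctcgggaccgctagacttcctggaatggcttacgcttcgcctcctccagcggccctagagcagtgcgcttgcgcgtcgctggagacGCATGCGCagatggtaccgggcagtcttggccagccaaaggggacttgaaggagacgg
Sdhb: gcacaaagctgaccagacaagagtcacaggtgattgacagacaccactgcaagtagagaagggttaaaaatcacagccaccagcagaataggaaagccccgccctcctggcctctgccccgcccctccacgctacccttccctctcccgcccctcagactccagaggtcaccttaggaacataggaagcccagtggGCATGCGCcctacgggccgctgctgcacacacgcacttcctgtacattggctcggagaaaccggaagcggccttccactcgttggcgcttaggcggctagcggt
Uqcrc1: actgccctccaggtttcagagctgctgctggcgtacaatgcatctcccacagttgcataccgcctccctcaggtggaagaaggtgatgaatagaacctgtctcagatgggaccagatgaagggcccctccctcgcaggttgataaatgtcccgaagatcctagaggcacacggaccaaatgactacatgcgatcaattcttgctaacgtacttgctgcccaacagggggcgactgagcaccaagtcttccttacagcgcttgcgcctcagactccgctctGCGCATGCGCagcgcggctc
Ndufa11: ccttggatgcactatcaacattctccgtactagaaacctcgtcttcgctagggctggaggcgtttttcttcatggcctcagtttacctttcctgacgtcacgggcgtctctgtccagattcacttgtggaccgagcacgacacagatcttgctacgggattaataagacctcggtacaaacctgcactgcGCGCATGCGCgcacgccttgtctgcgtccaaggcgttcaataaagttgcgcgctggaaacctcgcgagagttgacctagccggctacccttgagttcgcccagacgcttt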

How the data were processed

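The authors aligned the 3′ end reads to GRCm38.p6 with SLAM-DUNK 0.4.3 and deposited, for each library, the counts per gene of reads, of reads with a T to C change, of multimapping reads, of covered Ts and of converted Ts. The conversion rate was deposited by the authors as a fraction, the converted over the covered Ts of a gene. The deposited CPM values were scaled by the authors to the reads of each library. The deposited length and T content describe the 3′ end windows and were not changed. FastQC 0.11.8 was also used by the authors.

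Reads were tested with edgeR 4.0.16 (quasi-likelihood, TMM, filterByExpr), and converted Ts likewise with the covered Ts as offset, each at an adjusted p below 0.01. Half-lives were fitted as an exponential decay after subtracting the rate without s4U, with a mean T coverage above 100, values of 0.67 to 18 h and a residual error limit of 0.3, and compared with limma 3.58.1 at an adjusted p below 0.05. DESeq2 1.42.0 was run for comparison. Python 3.11.15, numpy 2.4.6, pandas 2.3.3, matplotlib 3.10.9 and R 4.3.3 were used.

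The p-values were adjusted over all tested genes. The gene rule and the lists were chosen with earlier results of these data known. Genes are named by rule: the 2 most abundant of each complex, the 5 longest and 5 shortest half-lives in DMSO, those on X, those that pass no filter, and the called genes with the largest log2 ratio (at most 5 per comparison, or 10 for the mean over 8 times). Other genes of an isoform family, of complex II, of complex III in the DMSO chase, and with an unadjusted p below 0.05 in half-life are named beside them. Genes taken by the symbols of cytosolic and mitochondrial ribosomal proteins served for comparison. The cytosolic list also holds Rps19bp1 and the kinase genes starting with Rps6k, which are not ribosomal proteins.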

Additional observations from a re-analysis of the deposited data

Results flagged for a closer look

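In STM2457 at 2.3 h of chase, replicate 1 had 22184 CPM in the subunit genes together, while the other 3 libraries had 20736 to 20882. Its gap to the nearest library is 0.899 of the range, above the critical value for 4 libraries. The same was examined for the reads and the conversion rate of each group of 4 libraries and for the half-life medians of the 4 series of each treatment. Of these 36 sets of 4 values this was 1, where 1.8 would be apart by chance.

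The change of Uqcrfs1 reads over the chase differed between treatments by log2 1.20. It was flagged because the difference between the groups passed the test. The call was lost without STM2457 replicate 2 (adjusted p = 0.0137 from edgeR).

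The loss of label of Atp5f1 from 0 to 12 h differed between treatments by log2 −0.91. It was flagged for the same reason, and 8 of 13 alternatives did not call it.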

How the results depend on the processing

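Of 233 alternatives over 16 results, 34 moved the result and 0 reversed it. Counts of called genes and half-lives in hours cannot change sign. A reversal was therefore possible only in the 15 alternatives of the median log2 ratio of half-lives. The other 199 kept a count within 1.5 times its value, or a half-life within 1 SD of the spread between series. The covariate and the mean without 1.5 and 5.3 h were chosen after seeing the data.

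The median half-life in DMSO ran from 7.60 to 8.77 h and that in STM2457 from 6.77 to 8.20 h, the highest being without background subtraction (8.20 h). The log2 ratio stayed between −0.26 and −0.10.

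Conversion rates at 12 h: 11 genes called, 2 with the overall-rate offset, 3 with limma, and 6 (without STM2457 replicate 2) to 12 (without DMSO replicate 2) when a replicate was left out. Loss of label: 1 called, 0 with the offset, 0 with limma, 0 with only the groups compared, and 0 (without DMSO replicate 1) to 1 (without DMSO replicate 2).

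Reads without s4U: 0 called, 1 with the window length covariate. At 12 h: 3 called, 5 with the covariate, 5 with only the groups compared, and 1 (without DMSO replicate 4) to 3 (without DMSO replicate 2). Mean over 8 times: 20 called, 32 with the covariate, 5 without 1.5 and 5.3 h, and 11 (without STM2457 replicate 3) to 27 (without DMSO replicate 1).

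Chase in DMSO: 25 called, 11 (without DMSO replicate 1) to 27 (without STM2457 replicate 3). Chase in STM2457: 3 called, 1 without multimapping reads, 12 with the covariate, 12 with only the groups compared, and 1 (without STM2457 replicate 1) to 6 (without DMSO replicate 1). Chase difference: 1 called, 2 with the covariate, 2 with only the groups compared, and 0 (without STM2457 replicate 2) to 1 (without DMSO replicate 1). Without multimapping reads Atp5j in the DMSO chase turned to log2 1.32.

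With the replicate number as a block (replicate block) 15 genes were called in conversion rate at 12 h, 26 in the DMSO chase and 18 in the mean over 8 times. Pairing by replicate number was not supported: residuals of libraries with the same number had a mean correlation of 0.00967 over 35 pairs. Sdha and Ndufb4 (adjusted p = 0.0106 from edgeR) at 5.3 h were not called with the replicate block.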

Other observations

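Related mitochondrial genes were read beside the subunits, as the mean over 8 chase times in STM2457 against DMSO. Of all 12659 genes, 26.5% were called in this comparison, 1763 higher and 1594 lower (12.6%). Whether a list differs from all genes was not tested. Of 44 assembly factors tested, 13 were higher and 6 lower, led by Coa7 (log2 0.83) and Ndufaf1 (0.77), and without 1.5 and 5.3 h 11 were higher and 3 lower, where 18.8% of all genes were called. Of 13 citric acid cycle genes 6 were lower, Fh1 (−0.34) among them. Idh3a (−0.34) lost its call without 1.5 and 5.3 h (adjusted p = 0.0636 from edgeR), and without DMSO replicate 1 (0.0139) or 2 (0.0353) or STM2457 replicate 1 (0.0220) or 2 (0.0163).

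Of 15 regulators of mitochondrial biogenesis 5 were higher and 0 lower (33.3% called), with Ppargc1b (0.66) and Pprc1 (0.41) foremost. Of 6 genes of electron carriers and coupling 2 were lower, Etfa (−0.44, and −0.28 without 1.5 and 5.3 h with an adjusted p of 0.00885 from edgeR) and Cyc1 (−0.13), the latter a core subunit of complex III whose symbol the gene rule does not match. Cyc1 lost its call without DMSO replicate 1 (adjusted p = 0.0412 from edgeR), 2 (0.0161) or 3 (0.0347), STM2457 replicate 1 (0.0369) or 3 (0.0267), and without 1.5 and 5.3 h (0.0343). The 76 mitochondrial ribosomal genes split into 17 higher and 23 lower, which is 52.6% called. The 94 genes taken by cytosolic ribosomal protein symbols split into 11 and 5 (17.02% called).

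Half-lives in DMSO had medians of 3.16 h in the assembly factors, 2.79 h in the regulators, 5.24 h in the citric acid cycle and 8.05 h in the genes of electron carriers and coupling.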
